A study of Mus musculus with 6 samples.

Results

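The HoxC genes are 1 of the 4 Hox clusters of the mouse, a run of homeodomain transcription factor genes on chromosome 15. Of its genes, Hoxc4, Hoxc5, Hoxc6, Hoxc8, Hoxc9 and Hoxc13 were taken here because they had a probe set in the deposited table that the array annotation assigned to them alone. These 6 genes, read by 8 probe sets, stand among 12393 genes and 22690 probe sets. Hoxc6 had 3 probe sets and the others 1 each, and the probe set with the highest mean over the 6 arrays gave the main reading of Hoxc6. Along the chromosome the order is Hoxc13, Hoxc12, Hotair, Hoxc11, Hoxc10, Hoxc9, Hoxc8, Hoxc6, Hoxc5, Hoxc4. Hoxc10, Hoxc11, Hoxc12 and the long noncoding RNA gene Hotair had 0 probe sets in the annotation and were not analysed here.

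Hox genes give cells of the embryo a position along the head-to-tail axis. Within a cluster, genes nearer the Hoxc4 end are switched on earlier and reach further towards the head, and genes nearer the Hoxc13 end are later and more posterior. The proteins bind DNA together with the PBX and MEIS homeodomain cofactors, and in the gut they are expressed in overlapping domains of the mesenchyme that differ between stomach and intestine.

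RNA was measured on 6 Affymetrix arrays of cells from C57BL/6 embryos of embryonic day 13.5. Stomach or intestine was taken apart with 0.1% Collagenase-Dispase and then trypsin, which depletes the endoderm, and the cells were cultured for 3 days in 20% serum. There were 3 groups of 2 biological replicates. The stomach and intestine cultures carried either Rosa26+/Barx1 or Bapx1+/Cre and were labelled wild type, while the intestine cultures with both, Rosa26+/Barx1;Bapx1+/Cre, overexpressed the stomach homeodomain factor BARX1 and are called Barx1 intestine. Every group thus carried at least 1 of these alleles. The Cre is driven from the Bapx1 locus, and neither the share of cultured cells that had recombined nor the number of embryos behind an array is given in the sources used here. The series asks how BARX1 controls stomach smooth muscle development, and here the same arrays are read for the HoxC genes.

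All values are log2 levels, so a difference of 1 is a doubling, and only 2 arrays per group limit the precision of each value. The array medians lay between 6.93 and 6.97 over the probe sets that are not controls. The lower quartiles were 4.72 to 4.75, and levels close to or under them are not taken here as above background. Barx1 read 9.82 and 9.79 in stomach, 5.13 and 4.93 in intestine, then 8.66 and 8.79 in Barx1 intestine, in the order of the labels. All 12 general mesenchyme markers, such as Vim and Col1a1, lay above the lower quartile on every array, and the 4 markers of stomach mesenchyme (Barx1, Isl1, Six2 and Nkx2-5) were all higher in stomach than in intestine. Calls come from a limma fit over all genes, at a Benjamini-Hochberg adjusted p under 0.05 in each comparison. The 3 comparisons share groups, so their values for a gene are given side by side and are not independent.

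Hoxc4 is the member nearest the end of the cluster that is expressed furthest forward, and it was among the members lower in stomach. Its start is shown because no other member had a promoter window in the sources used here. It is the window of RefSeq (GRCm38.p6) at chr15:103034145-103034444, plus strand, with 250 bases before the annotated start and 50 after it. The interval of the gene in the same assembly begins before the window, at position 103018097. It was searched on both strands for TAATTA (a homeodomain core), TTTATG (a CDX core), TGATTTAT and TGATTGAT (PBX with HOX) and AGGTCA (a core bound by retinoid receptors), and the capitals mark every match. These motifs occur in 5.29%, 11.9%, 0.977%, 0.746% and 16.3% of 32851 such windows. The only match here was 1 AGGTCA, read on the minus strand, in a window with a GC content of 60.3%.
Hoxc4: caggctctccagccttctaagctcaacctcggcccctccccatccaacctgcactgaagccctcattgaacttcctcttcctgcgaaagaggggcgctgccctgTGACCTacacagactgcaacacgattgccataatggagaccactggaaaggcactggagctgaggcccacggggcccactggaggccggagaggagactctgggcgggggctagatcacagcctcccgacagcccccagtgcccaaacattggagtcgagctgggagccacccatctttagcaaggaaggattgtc

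**Figure D1:**
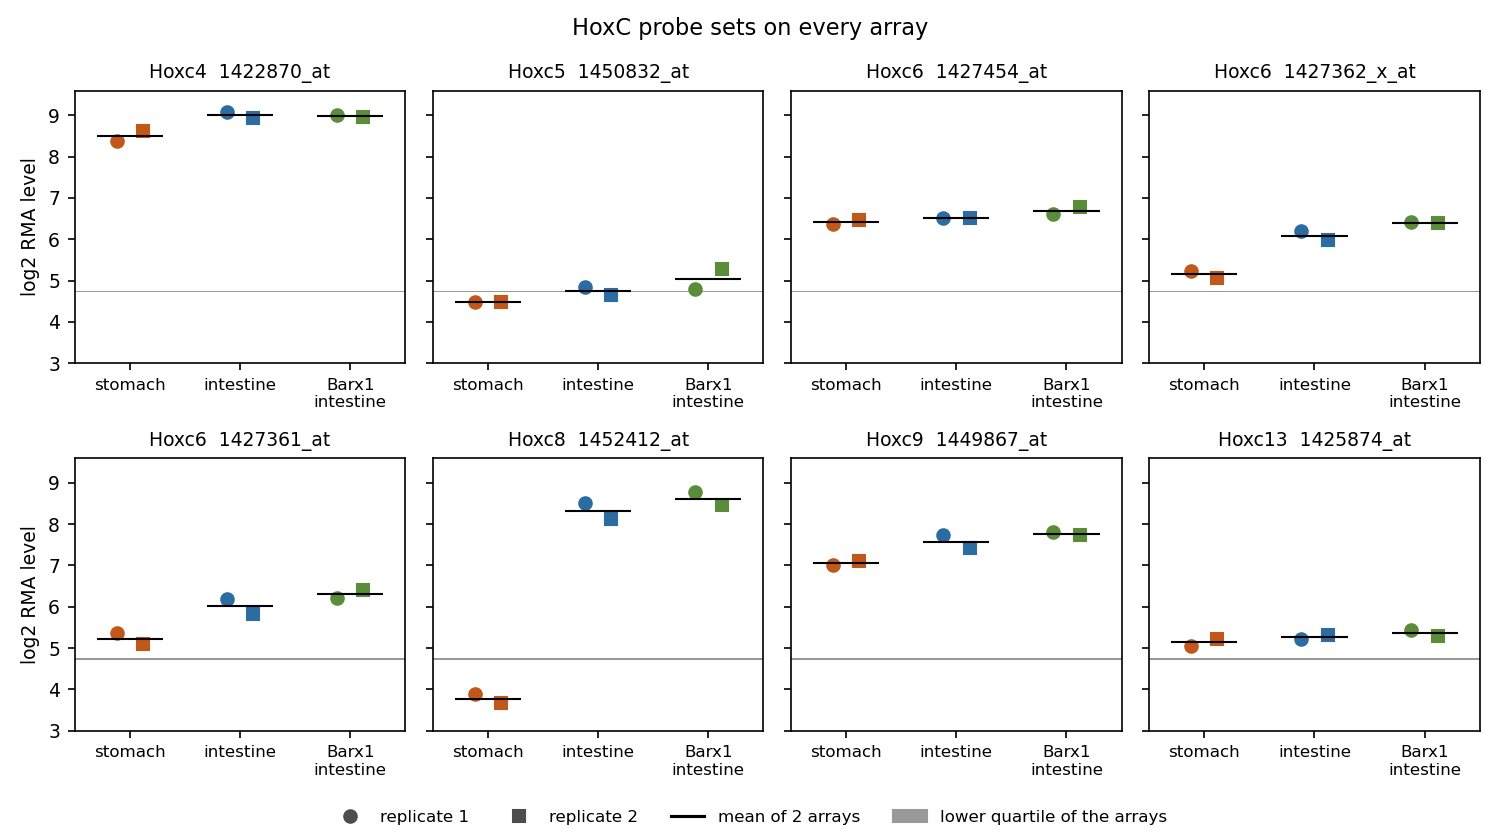
Log2 RMA level (vertical axis) of the 8 HoxC probe sets in stomach, intestine and Barx1 intestine cultures. Circles are replicate 1, squares replicate 2, black bars the mean of the 2 arrays, and the grey line the lower quartile of the arrays. Hoxc8 read 3.89 and 3.66 in stomach and between 8.14 and 8.77 on the 4 intestine arrays.

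In the comparison of stomach with intestine, Hoxc8 had by far the largest difference among the measured members. The genes of the cluster without a probe set cannot be placed beside it. Hoxc8, which in mouse patterns the thoracic skeleton and the motor neurons of the forelimb level, read 3.89 and 3.66 in stomach against 8.52 and 8.14 in intestine. The stomach values were below the lower quartile of their arrays, at percentiles 13.1 and 10.1 of all probe sets, and the intestine values stood at percentiles 67.6 and 63.0. The difference was -4.55 (SE 0.17, 95% interval -4.98 to -4.12, adjusted p = 0.000560), a ratio of 23.4 in favour of intestine. Since the stomach level was not shown to be above background, this size is read as a lower bound. In cultures of mixed cells, fewer cells that express a gene and less of its RNA per cell cannot be told apart. The call was made in all 6 fits that left out 1 array (-4.74 to -4.36). In such a fit a group left with 1 array is assumed to vary like the others, and both fits without an array of the third group give 1 and the same result. These fits have fewer calls in all, 281 to 1692 genes here against 2100, so a lost call does not show a smaller difference.

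Of the 6 members 3 were lower in stomach and 0 higher, where 8.09% of all genes were called lower and 8.86% higher. The groups did not overlap for 5 of the 6, as for 64.1% of all genes. The median difference of the 6 was -0.39, beside 0.02 over all genes. The other members called lower were Hoxc4 and Hoxc9, by far smaller amounts.

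Among the members of the forward end, Hoxc4, which mice need for a normal oesophagus, read 8.38 and 8.62 in stomach against 9.08 and 8.93 in intestine. The arrays did not overlap, and the difference of -0.51 (SE 0.10, adjusted p = 0.0273) passed the test. It lost the call in all 6 fits that left out an array, with adjusted p from 0.0509 to 0.122. Hoxc5, a neighbour with a role in patterning the neck and upper thorax, read 4.47 on both stomach arrays and 4.84 and 4.65 in intestine. All of these lay near the lower quartile, and the difference of -0.27 (95% interval -0.68 to 0.14, adjusted p = 0.305) did not pass. The main probe set of Hoxc6 read 6.37 and 6.47 in stomach against 6.50 and 6.52 in intestine, a difference of -0.09 without a call (adjusted p = 0.466), which turned to 0.06 when the arrays were scaled to 4 housekeeping genes.

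Behind Hoxc8, Hoxc9, which defines thoracic motor neuron identity in mouse, read 7.0 and 7.10 in stomach against 7.74 and 7.41 in intestine. The difference of -0.52 (SE 0.12, adjusted p = 0.0356) passed, and the call was kept in 1 of the 6 fits without an array (adjusted p from 0.0192 to 0.172). It also ended with housekeeping scaling (-0.38, adjusted p = 0.0531). Hoxc13, which mice need for hair and nails, read 5.05 and 5.23 in stomach against 5.23 and 5.31 in intestine. The arrays overlapped and the difference was -0.13 (adjusted p = 0.378), or 0.02 with housekeeping scaling. Its 6 values lay between percentiles 28.7 and 33.6 of their arrays.

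**Figure D2:**
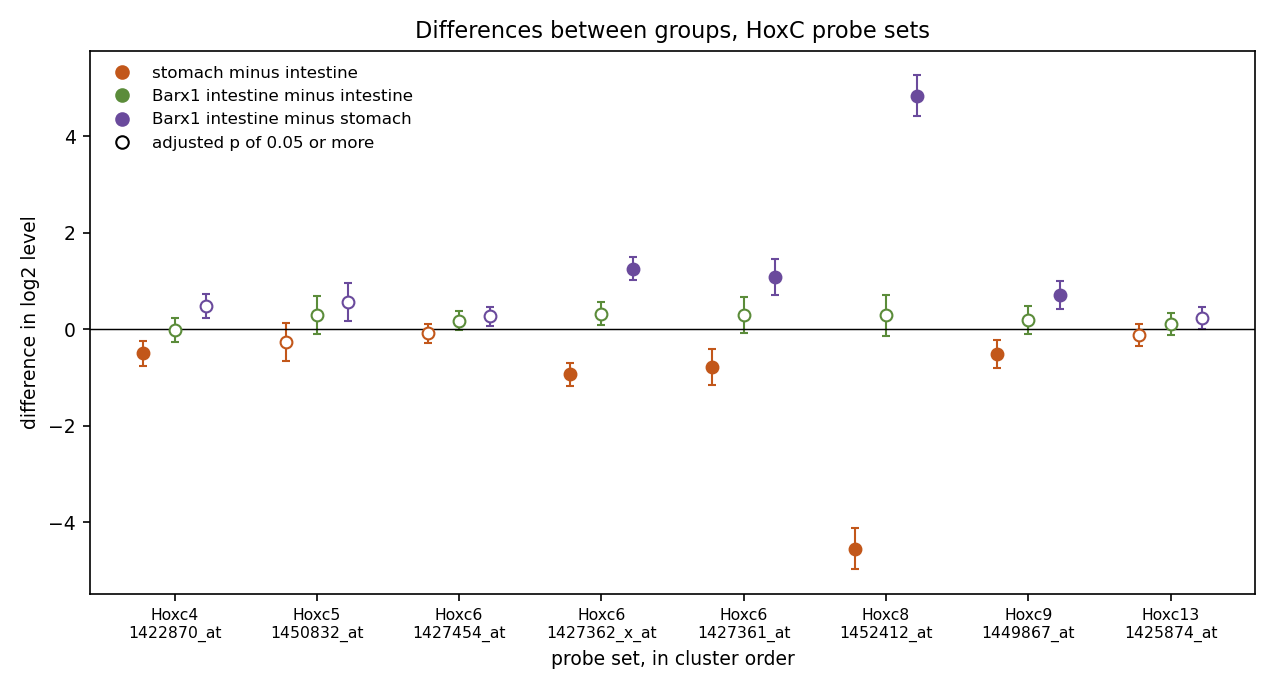
Difference in log2 level (vertical axis) for each HoxC probe set in cluster order, in the 3 comparisons, with 95% intervals of the limma fit over all probe sets. Filled points passed at an adjusted p under 0.05. Hoxc8 lies at -4.55 for stomach minus intestine, 0.29 for Barx1 intestine minus intestine and 4.84 for Barx1 intestine minus stomach.

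The HoxC levels of Barx1 intestine lay near those of the intestine, and Hoxc8 stayed far from its stomach level. Barx1 itself did not reach its stomach level in Barx1 intestine, with a difference of -1.08 from stomach (limma, adjusted p = 0.0120). Of the 6 members, read by their main probe sets, 0 passed by limma in the comparison with intestine. There 0 also had an unadjusted p under 0.05, and 3.98% of all genes passed. Hoxc8 read 8.77 and 8.46 in Barx1 intestine against 8.52 and 8.14 in intestine, so the arrays overlapped. The difference of 0.29 (SE 0.17, 95% interval -0.14 to 0.72, adjusted p = 0.379) was a ratio of 1.22 in favour of Barx1 intestine. The lower end of the interval is -0.14, while stomach minus intestine was -4.55. In the 6 fits without an array the difference ran from 0.09 to 0.48, with 0 calls. On the same arrays the stomach gene Isl1 read 9.72 and 9.75 in Barx1 intestine and 5.31 and 5.06 in intestine, next to 9.56 and 9.43 in stomach. Not every gene higher in stomach moved so far. Of the 4 stomach mesenchyme markers, 3 were called higher in Barx1 intestine than in intestine. Nkx2-5 had means of 5.66 in intestine, 6.27 in Barx1 intestine and 6.69 in stomach. Those of Col1a2 were 12.30, 11.82 and 14.28 in the same order.

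The other members also gave small differences without a call, with narrower intervals than that of Hoxc8. Hoxc4 read 9.01 and 8.95, a difference of -0.02 (95% interval -0.28 to 0.23). Its sign turned with median centring or housekeeping scaling of the arrays. Hoxc9 read 7.80 and 7.73, a difference of 0.19 (-0.10 to 0.48). The main probe set of Hoxc6 read 6.60 and 6.77, above both intestine arrays, with a difference of 0.17 (-0.02 to 0.37, adjusted p = 0.248). Hoxc6 was the only member whose arrays did not overlap between these groups, against 52.4% of all genes. Hoxc5 read 4.80 and 5.28, which differ by more than any other pair of replicates of a member's main probe set, and Hoxc13 read 5.45 and 5.29. Their differences were 0.29 (-0.12 to 0.70) and 0.10 (-0.13 to 0.33). The median over the 6 was 0.18, beside 0.02 over all genes, with 5 positive and 1 negative.

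Set against stomach, Barx1 intestine was higher for 2 of the 6 members and lower for 0, where 2.56% of all genes were called higher and 2.64% lower. Hoxc8 was higher by 4.84 (SE 0.17, 95% interval 4.41 to 5.27, adjusted p = 0.00325), a ratio of 28.6 that is again a lower bound. The call held in 5 of the 6 fits that left out an array. Without stomach replicate 2 the difference was 4.72 and the adjusted p 0.0582; that limma fit called 0 of all genes, although 1906 had an unadjusted p under 0.05 and Hoxc8 had the lowest (8.11e-06).

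Hoxc9 was higher in Barx1 intestine than in stomach by 0.71 (SE 0.12, adjusted p = 0.0358), and the call ended in 4 of the 6 fits without an array, those without either stomach array or either Barx1 intestine array (adjusted p from 0.111 to 0.188). Those fits called 12, 0, 5 and 113 of all genes against 644, and the Hoxc9 difference ran from 0.66 to 0.76 over the 6. Hoxc4 differed by 0.48 with an adjusted p of 0.0593. It passed when dim genes were left out (adjusted p = 0.0439) and with a variance trend (adjusted p = 0.0300). Hoxc5 (0.56, adjusted p = 0.112), the main probe set of Hoxc6 (0.27, adjusted p = 0.114) and Hoxc13 (0.23, adjusted p = 0.208) did not pass. Stomach and Barx1 intestine arrays did not overlap for 6 of the 6 members, as for 58% of all genes, and the median difference of the 6 was 0.52 beside -0.00077 over all genes.

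Over the 3 groups, the means of Hoxc8 spanned at least 4.84, a bound since the stomach level was not shown to be above background. Hoxc9 spanned 0.71, Hoxc5 0.56, Hoxc4 0.51, the main probe set of Hoxc6 0.27 and Hoxc13 0.23. Hoxc5 lay near the lower quartile except for 5.28 on Barx1 intestine replicate 2, so its place in this ranking is uncertain. Hoxc13 was also dim, at percentiles 28.7 to 33.6. With either other Hoxc6 probe set, described next, that gene would stand above Hoxc9. For 5 members the order of the group means was stomach, intestine, Barx1 intestine from low to high, and for Hoxc4 the intestine stood above Barx1 intestine, with a difference of -0.02. Under housekeeping scaling Hoxc6 and Hoxc13 no longer had stomach lowest. Intestine and Barx1 intestine, neighbours in that order, were not shown to differ for any member.

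The 3 probe sets of Hoxc6, a gene of the forelimb and upper thoracic level, gave differences of unlike size. The main one, 1427454_at, spanned 6.37 to 6.77 over the 6 arrays. Probe set 1427362_x_at read 5.24 and 5.07 in stomach, 6.19 and 5.98 in intestine, then 6.42 and 6.39 in Barx1 intestine. Probe set 1427361_at read 5.36 and 5.09, 6.19 and 5.83, and 6.21 and 6.40 in the same order of groups. The stomach values of both were dim, at percentiles 29.0 to 32.3 of their arrays, so the size of their differences from stomach is uncertain. All 3 probe sets placed both stomach arrays below the 4 intestine arrays, by a smaller margin for the main one.

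In the limma fit over all probe sets, 1427362_x_at was lower in stomach than in intestine by -0.94 (SE 0.10, adjusted p = 0.00528), and 1427361_at by -0.78 (SE 0.15, adjusted p = 0.0269), where 6.78% of probe sets were called lower. In Barx1 intestine they exceeded the stomach by 1.25 (adjusted p = 0.0108) and 1.08 (adjusted p = 0.0272), where 1.84% were called higher. Against intestine they differed by 0.31 (adjusted p = 0.143) and 0.30 (adjusted p = 0.324), where 3.09% of probe sets were called. The gene averaged over its probe sets was lower in stomach by -0.60 (adjusted p = 0.0115), against -0.09 for the main one, so the reading of Hoxc6 rests on the choice of probe set. The suffix _x_at marks a probe set with probes that may match other transcripts as well.

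Among the other Hox genes, 25 had a probe set of their own. Of these 4 were higher in stomach than in intestine (Hoxa2 0.67, Hoxa7 0.79, Hoxa9 1.65 and Hoxb9 0.75) and 1 was lower (Hoxb5, -0.34). Of all genes 8.86% were called higher and 8.09% lower. The median difference of the 25 was 0.08. With Barx1 4 of the 25 were higher than in intestine (Hoxa7 0.48, Hoxa9 1.93, Hoxb9 1.14 and Hoxd8 0.88). Hoxb5 was lower (-0.39), and the median of the 25 was 0.15. Of all genes 3.98% were called in either direction between Barx1 intestine and intestine. The HoxC members had 0 calls in that comparison, and with so few members 0 calls at that share does not set them apart. Whether they differ from the other Hox genes was not tested. Of the 25, 10 lay below the lower quartile on all arrays, among them Hoxa13 and Hoxb13, paralogs of Hoxc13.

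Paralogs of the members are the genes at the same place in the other clusters, and 12 of 15 were measured alone. Of the 3 paralogs of Hoxc9 measured alone, 2 were called the other way in stomach. Hoxa9 read 7.08 and 7.05 in stomach, 5.73 and 5.10 in intestine, then 7.46 and 7.24 in Barx1 intestine. Hoxb9 read 7.27 and 7.22, then 6.74 and 6.25, then 7.70 and 7.57. Both were higher in stomach than in intestine, where Hoxc9 was lower. The third, Hoxd9, gave a difference of 0.13 with overlapping arrays and no call (adjusted p = 0.371). The paralog of Hoxc8 measured alone, Hoxd8, read 6.76 and 6.73 in stomach, 7.17 and 7.07 in intestine, then 8.12 and 7.87 in Barx1 intestine. It exceeded the intestine by 0.88 in Barx1 intestine (adjusted p = 0.0188), while Hoxc8 differed by 0.29 without a call, and it exceeded the stomach by 1.25 (adjusted p = 0.0114). Whether the paralogs differ from the members was not tested. Against intestine, the calls of Hoxa9, Hoxb9 and Hoxd8 in Barx1 intestine each held in 2 of the 6 fits without an array, and those of Hoxa7 and Hoxb5 in 0, where those fits called 50 to 466 of all genes against 493. Against intestine, the stomach calls held in 6 of the 6 for Hoxa7, 4 for Hoxa9, 3 for Hoxa2, and 2 each for Hoxb9 and Hoxb5. Hoxb6, a paralog of Hoxc6, was higher in Barx1 intestine than in stomach (0.81, adjusted p = 0.0253), and kept that call in 2 of the 6.

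**Figure D3:**
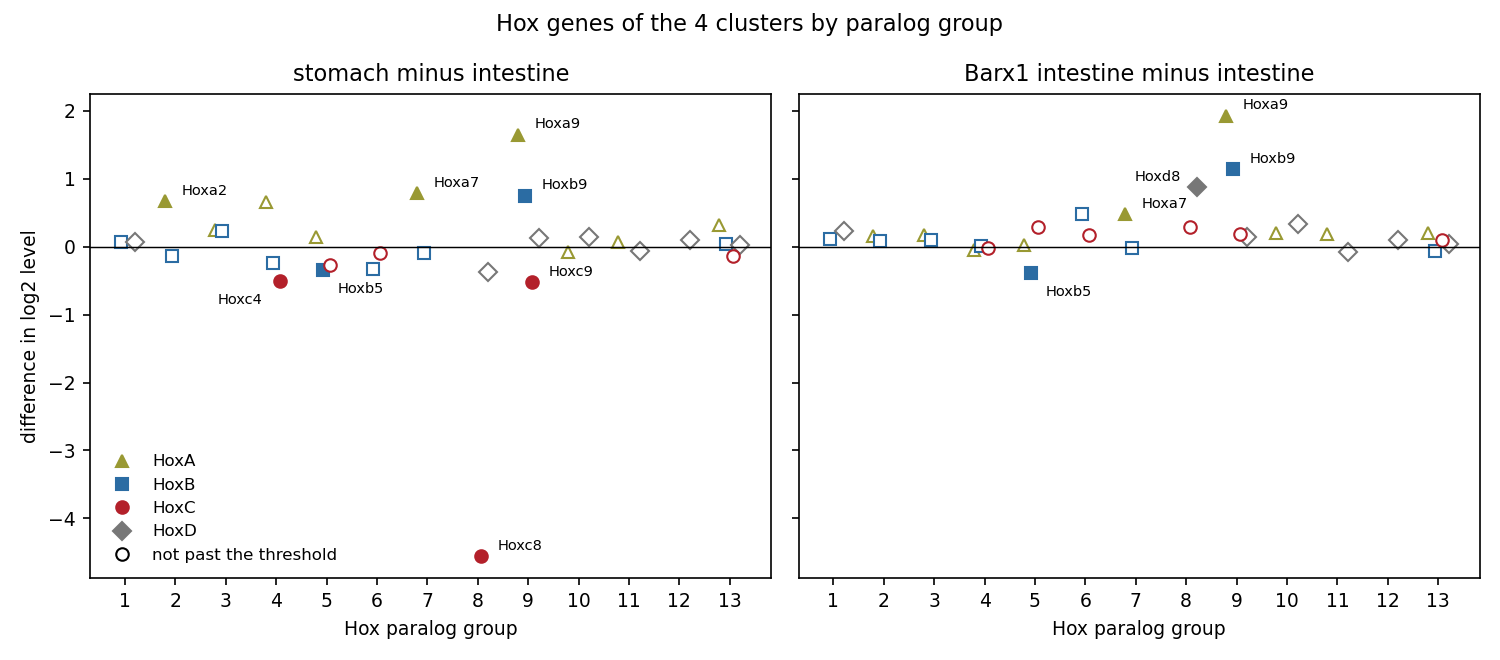
Difference in log2 level (vertical axis) of the Hox genes of the 4 clusters against their paralog group (horizontal axis), for stomach minus intestine on the left and Barx1 intestine minus intestine on the right, which share the intestine arrays. Filled symbols passed at an adjusted p under 0.05. Hoxc8 lies at -4.55 on the left and 0.29 on the right, and Hoxa9 at 1.65 and 1.93.

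The cofactors that HOX proteins bind with were higher in stomach for 4 of 8 measured genes and lower for 0. Of all genes 8.86% were called higher and 8.09% lower in stomach than in intestine. Meis1 read 9.76 and 9.79 in stomach, 8.64 and 8.63 in intestine, then 9.44 and 9.36 in Barx1 intestine. It was higher than in intestine by 1.13 in stomach (adjusted p = 0.00124) and by 0.76 in Barx1 intestine (adjusted p = 0.00836), which lay below stomach (-0.37, adjusted p = 0.0332). Meis2 (0.79), Pbx2 (0.24) and Pbx3 (0.41) were higher in stomach, and Pbx2 also in Barx1 intestine (0.33). Both Pbx2 calls ended in all 6 fits without an array, while Meis1 kept its call in 6 for stomach and 5 for Barx1 intestine.

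Regulators that act on Hox clusters from outside were mostly without calls in the comparisons with intestine. There 8.86% of all genes were called higher and 8.09% lower in stomach, and 3.98% were called between Barx1 intestine and intestine. Of 11 retinoid and axial regulators 2 were lower in stomach and 0 higher: Aldh1a1 (-1.91) and Aldh1a3 (-3.02), enzymes that make retinoic acid, a signal known to switch on Hox genes. They were lower in Barx1 intestine than in intestine too, by -0.96 and -2.01, and higher there than in stomach, by 0.95 and 1.00. Rarb, a retinoic acid receptor, was lower in Barx1 intestine than in stomach (-1.39, adjusted p = 0.0349), a call held in 2 of the 6 fits without an array. Whether any of these bears on the HoxC levels was not tested. Against intestine, the Barx1 intestine call of Aldh1a1 held in 1 of the 6 and that of Aldh1a3 in 6. Cdx1 and Cdx4, homeobox genes that regulate Hox clusters, lay below the lower quartile on all arrays, and Cdx2 read 5.10 to 5.40. Of 15 Polycomb and Trithorax group genes, which keep Hox clusters silent or active, Bmi1 (0.36) and Phc1 (0.31) were higher in stomach than in intestine. In that comparison 7 of the 15 had an unadjusted p under 0.05 by limma. Between Barx1 intestine and intestine 0 passed by limma, with 7 at an unadjusted p under 0.05. There 14 of the 15 differences were positive and 1 negative, with a median of 0.18, beside 0.02 over all genes. Cbx7, below the lower quartile on all arrays, was higher in Barx1 intestine than in stomach (0.47), and its probe set with the lowest mean gave -0.12. Of 8 measured genes that flank the HoxC cluster, Cbx5 was higher in stomach than in intestine (0.34) and Gpr84 was lower in Barx1 intestine than in stomach (-0.60). Bmi1, Phc1, Cbx5, Cbx7 and Gpr84 each kept these calls in 2 of the 6 fits without an array. The median differences of the 8 flanking genes were -0.04, -0.04 and -0.01 in the 3 comparisons.

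The genes whose levels followed Hoxc8 most closely over the 6 arrays were sought among 525 others with group means spanning at least 1. The 5 with the highest Pearson r were Ptges (0.992), which makes prostaglandin E, Hacd4 (0.983), of fatty acid elongation, Krt20 (0.983), a keratin of gut epithelium, C1qtnf3 (0.981), a secreted protein, and Bcar3 (0.975), a signalling adaptor. Each was low on both stomach arrays and high on the 4 intestine arrays. Ptges read 6.88 and 6.79 in stomach, 8.60 and 8.54 in intestine, then 8.44 and 8.55 in Barx1 intestine. Their group means spanned 1.03 to 1.85, less than that of Hoxc8. With 6 arrays in 3 groups such values mostly reflect the group means, and no test was made.

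**Figure D4:**
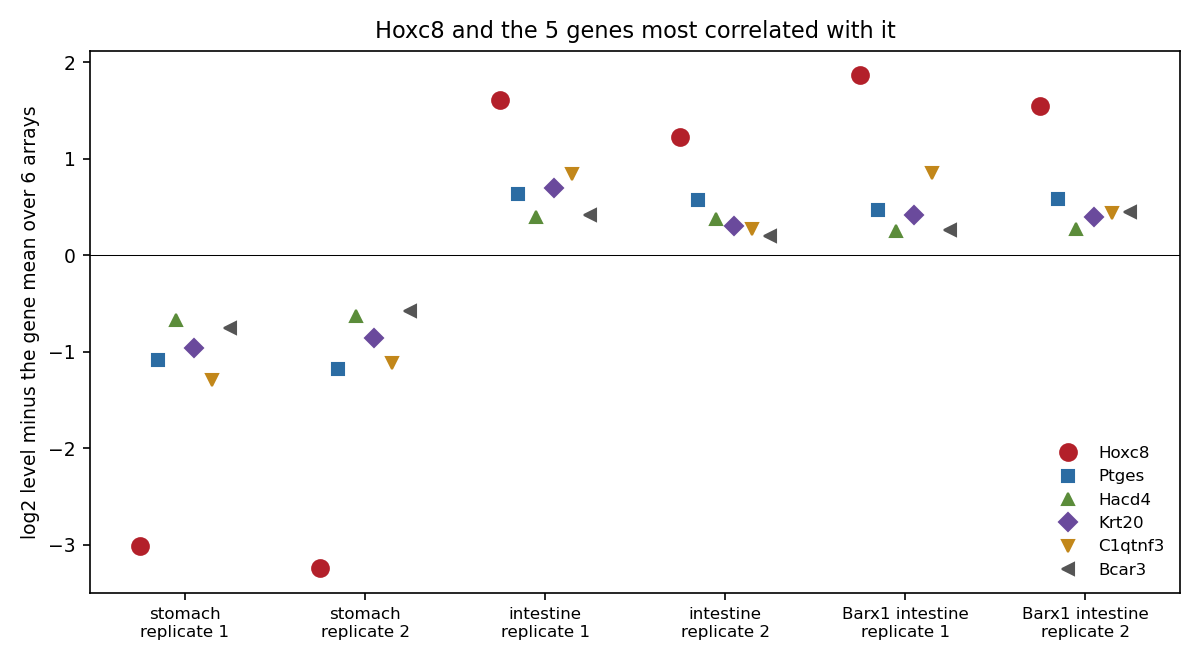
Log2 level minus the gene's own mean over the 6 arrays (vertical axis) on each array (horizontal axis), for Hoxc8 and the 5 genes with the highest Pearson r to it. All 6 genes lie below 0 on both stomach arrays and above 0 on the 4 intestine arrays, and Hoxc8 has the widest span.

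Markers of other cell types also differed between the cultures, and their part in the HoxC values was not tested. The log2 of the summed level of 8 endothelial markers was 8.30 to 8.39 in stomach, 9.16 to 9.26 in intestine and 8.87 to 9.13 in Barx1 intestine, with stomach below the others as for Hoxc8. Among them Kdr had group means of 6.99, 8.58 and 8.27 in that order. For stomach minus intestine 4 of the 8 were negative and 4 positive, with a median of -0.07, and Kdr and Pecam1 were called lower. Pecam1, Cdh5, Tek and Tie1, which define that cell type, lay below the lower quartile on all arrays. The summed epithelial markers ran from 12.1 to 12.9 in stomach, 13.4 to 14.5 in intestine and 12.8 to 13.4 in Barx1 intestine. Of these markers 3 of 15 were called lower in stomach than in intestine, as were 8.09% of all genes. The highest epithelial sum fell on intestine replicate 1, which also had the higher Hoxc4, Hoxc5, Hoxc8 and Hoxc9 of its group. The main probe set of Hoxc6 and Hoxc13 were higher on intestine replicate 2. In stomach, replicate 2 had the higher epithelial sum and the lower Hoxc8 (3.66 against 3.89). Both of these Hoxc8 values lay below the lower quartile, so their order is not read. In Barx1 intestine, replicate 1 had the higher epithelial sum and the higher Hoxc8. Each group gives 1 pair of arrays, and no relation between the sum and the HoxC levels was tested. Enteric neural crest markers read 10.2 in stomach, 10.7 and 11.1 in intestine, then 9.33 and 9.50 in Barx1 intestine. Leukocyte markers read 12.3 to 12.6, 13.1 to 13.98 and 11.5 to 12.5. Of these 6 of 12 were lower in Barx1 intestine than in intestine, where 3.98% of all genes were called in either direction. For the neural crest and leukocyte markers the Barx1 intestine, where Hoxc8 was high, lay lowest on average. Of 9 markers of skeletal muscle and body wall, whose tissue carries much HoxC expression in the embryo, 0 differed by limma in any comparison (1 had an unadjusted p under 0.05 between Barx1 intestine and intestine, and 0 in the others), and 6 lay below the lower quartile on all arrays.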

How the data were processed

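The deposited values are log2 expression levels. The authors made them with RMA, according to the submitters' processing notes, in a version not given in the sources used here. This method brings the arrays to a common distribution, so a shift of most genes alike would be removed. The log2 scale was read from the values. Groups and replicate numbers come from the labels, which call the replicates biological but do not name separate litters. The p-values rest on the spread between replicates, pooled over the 3 groups and moderated over all genes. They cover these samples and no wider set of litters.

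Of the 22690 probe sets 20380 named 1 gene, and the controls and the others were left out of the gene tests. The probe set of highest mean stood for each of the 12393 genes. All 6 arrays entered 1 fit of 3 group means with limma 3.58.1 in R 4.3.3 (lmFit, eBayes), leaving 3 residual degrees of freedom. Benjamini-Hochberg adjustment ran over all genes within a comparison, with 0.05 as the threshold. The same fit was run over 22626 probe sets. The procedure was tested on simulated data. SE and 95% intervals come from the moderated fit.

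The members, the lists and the rule for named genes were chosen with earlier results of these data known. The rule names the members, their paralogs, list genes past the threshold, and, for a member whose group means span at least 1, the 5 genes with the highest Pearson r over the arrays. Promoter windows were searched with Python 3.11.15. Alternatives covered scaling, a filter on dim genes, the choice of probe set, the variance prior, the arrays in the fit, the threshold and the replicate block.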

Additional observations from a re-analysis of the deposited data

How the results depend on the processing

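Every count rests on 2 arrays per group. For the HoxC members, 193 of 213 values under settings with all arrays and 90 of 108 with 1 array left out kept their direction and their side of the threshold. Of the rest, 9 and 16 lost a call, 7 and 0 gained one and 4 and 2 turned direction. The cause was not tested. In the main fits 3, 0 and 2 of the 6 members were called in the 3 comparisons. Most of the values above thus had no call to lose. The 16 calls lost with 1 array left out were those of Hoxc4, Hoxc8 and Hoxc9. Directions turned for Hoxc6 (0.0553) and Hoxc13 (0.0158) in stomach minus intestine with housekeeping scaling. Hoxc4 in Barx1 intestine minus intestine turned to 0.0131 with median centring and 0.0584 with housekeeping scaling, and ran from -0.0974 to 0.0490 with 1 array left out, turning to 0.0490 without intestine replicate 1 and 0.0046 without Barx1 intestine replicate 2. Cbx7 in Barx1 intestine minus stomach turned to -0.12 with the lowest probe set. Scaling to 4 housekeeping genes (Actb, Hprt, Tbp, Rplp0) moved the median of all genes in stomach minus intestine from 0.02 to 0.17.

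In stomach minus intestine, the 3 member calls became 4 with the mean of all probe sets or the lowest probe set, 2 with housekeeping scaling, and 1 with the replicate block, with only the 2 groups, at an adjusted p under 0.01 and with a log2 difference of 1 or more, and 1 to 2 with 1 array left out. The 2100 calls over all genes became 4108 (housekeeping scaling), 1396 (lowest probe set), 512 (p under 0.01), 3310 (p under 0.1), 276 (difference of 1 or more) and 281 to 1692 (1 array left out). The 9 calls among other Hox genes and cofactors became 14, 4, 2 and 2 to 9 with housekeeping scaling, p under 0.01, a difference of 1 or more and 1 array left out.

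In Barx1 intestine minus intestine, the member calls were 0 to 0 with 1 array left out. The 493 calls over all genes became 1062 (housekeeping scaling), 1037 (variance trend), 267 (replicate block), 50 (only the 2 groups), 40 (p under 0.01), 1316 (p under 0.1), 129 (difference of 1 or more) and 50 to 466 (1 array left out). The 7 calls among other Hox genes and cofactors became 4 (lowest probe set), 4 (replicate block), 1 (only the 2 groups), 1 (p under 0.01), 2 (difference of 1 or more) and 0 to 4 (1 array left out).

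In Barx1 intestine minus stomach, the 2 member calls became 3 with dim genes left out, the mean of all probe sets, the lowest probe set, the variance trend or p under 0.1, and 1 with the replicate block, at p under 0.01 and with a difference of 1 or more, and 0 to 2 with 1 array left out. The 644 calls over all genes became 998 (dim genes left out), 346 (lowest probe set), 1189 (variance trend), 337 (replicate block), 11 (p under 0.01), 1516 (p under 0.1), 123 (difference of 1 or more) and 0 to 727 (1 array left out). The 3 calls among other Hox genes and cofactors became 6 (housekeeping scaling), 5 (mean of all probe sets), 1 (replicate block), 0 (p under 0.01), 6 (p under 0.1), 1 (difference of 1 or more) and 0 to 3 (1 array left out).

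The replicate numbers were not taken to pair the samples. Deviations from the group means of samples with the same number correlated at -0.22 for stomach and intestine, -0.06 for stomach and Barx1 intestine, and 0.20 for intestine and Barx1 intestine.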
